A study of Caenorhabditis elegans with 12 samples.

Results

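Genes of 3 families that Caenorhabditis elegans transcribes in developing sperm were followed in 12 libraries of whole larvae from 4 strains. The families are the major sperm protein genes (symbols starting msp-), the sperm-specific family genes (ssp-) and the nematode-specific peptide group D genes (nspd-). Members were all protein-coding genes of the WBcel235 annotation whose symbol starts with one of these prefixes, whatever their values. There were 53 members among the 46926 genes listed, made up of 31 msp-, 12 ssp- and 10 nspd- genes. The values are TPM, shares of a library's transcripts that are corrected for gene length, so levels can be compared between genes.

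In a hermaphrodite the germ line makes sperm during the last larval stage and then switches to oocytes. Nematode sperm crawl on a pseudopod that is driven by filaments of major sperm protein rather than actin, and the msp- genes are transcribed in spermatocytes from many near-identical copies. Major sperm protein is also released from sperm as a signal that starts oocyte maturation and contraction of the gonadal sheath, partly through the Eph receptor VAB-1. The ssp- genes encode small proteins with a domain like that of major sperm protein, and the nspd- genes encode short peptides found in nematode sperm.

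The strains were the double mutant nuo-6(qm200); itr-1(sa73), the itr-1(sa73) mutant, the nuo-6(qm200) mutant and the laboratory wild type N2, with 3 biological replicates each. The gene nuo-6 encodes a subunit of mitochondrial complex I, and itr-1 encodes the inositol trisphosphate receptor, a calcium release channel of the endoplasmic reticulum. All 4 groups were bleach-synchronised, grew to the fourth larval stage (L4) on HT115 bacteria that carried an empty vector, and differ by genotype; the study's title concerns the lifespan effect of mitochondrial stress. Each genotype is represented by 1 strain, so the named alleles cannot be told apart from other differences between the strains. Whole larvae were used, so fewer sperm cells and less RNA per sperm cell cannot be told apart either.

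Between 13879 and 14902 genes per library had at least 1 TPM, and read depth is unknown because TPM keeps none. Replicate 3 of the double mutant stood apart for the sperm families, as it was the lowest of its group for 48 of the 51 members tested. Replicate 2 was the highest library of its group for 48 members in the double mutant, 48 in itr-1, 34 in nuo-6 and 44 in N2. The median SD of a member over the 3 libraries of a strain, on the log2(TPM + 1) scale, was 0.74 in the double mutant, 0.25 in itr-1, 0.16 in nuo-6 and 0.29 in N2. The same median over all 15230 genes tested was 0.13, 0.15, 0.09 and 0.11 in that order of strains. Members therefore varied more between libraries of a strain than the typical gene did.

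The members lie in clusters. The msp- genes sit on chromosomes II (13 genes) and IV (18 genes), and 44 of all 53 members have another member within 50 kb. Among the 53 genes, 50 are single-exon models, and 28 of the 31 msp- models have a coding length of 384 bases. No UTR is annotated for any msp- or nspd- gene. How reads that match several copies were assigned is not given in the sources used here, so the values of single msp- copies are uncertain. A sum over a family does not depend on how such reads were divided among its copies. It would depend on whether they were left out or shared with genes outside the family, which was not tested. The pair that stayed under the filter on low values (at least 1 TPM in at least 3 libraries) was msp-32, at most 0.349 TPM, and nspd-8, listed at 0 in every library. The other 51 members were tested.

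Summed over the 31 msp- genes, the level in itr-1 mutants lay above that of every other strain, and nuo-6 mutants lay between itr-1 and N2. The double mutant libraries had 2325, 3307 and 1196 TPM, the itr-1 libraries 4024, 5296 and 3827, the nuo-6 libraries 2285, 2715 and 2563, and the N2 libraries 1404, 1989 and 1587 TPM. No itr-1 library overlapped with any other strain and no nuo-6 library overlapped with N2, whereas the double mutant spanned the nuo-6 and the N2 ranges. The mean was 1.37 times that of N2 in the double mutant, 2.64 times in itr-1 and 1.52 times in nuo-6, and 1.11, 2.34 and 1.32 times in the same strains after the libraries were scaled by median of ratios. The 12 ssp- genes summed to 222, 315 and 121 TPM in the double mutant, 382, 522 and 338 in itr-1, 220, 287 and 233 in nuo-6, and 164, 218 and 159 in N2. The 10 nspd- genes summed to 332, 519 and 186 TPM in the double mutant, 568, 710 and 515 in itr-1, 342, 396 and 397 in nuo-6, and 236, 307 and 266 in N2. In the ssp- sum, as in the msp- sum, itr-1 overlapped with no other strain and the double mutant spread across nuo-6 and N2. In the nspd- sum replicate 2 of the double mutant lay just above the lowest itr-1 library, so these strains overlapped. These sums are descriptions and carry no test.

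**Figure D1:**
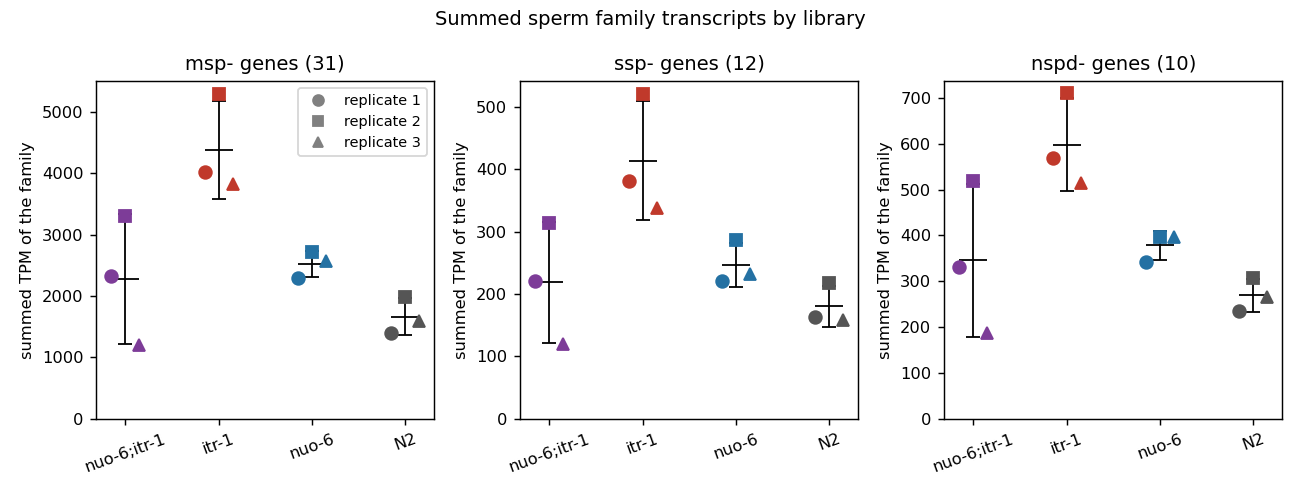
Summed TPM of the msp- (31 genes), ssp- (12) and nspd- (10) families in each library (points, shaped by replicate number), with the mean and SD of the 3 libraries of a strain (black lines). In the left panel the itr-1 libraries lie between 3827 and 5296 TPM and the N2 libraries between 1404 and 1989 TPM, and replicate 3 of the double mutant (1196 TPM) is the lowest of all 12.

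Single members were tested with limma on log2(TPM + 1), with all 12 libraries in 1 fit and Benjamini-Hochberg adjustment over all 15230 genes. A gene is called higher or lower where the adjusted p is under 0.05. Fold changes are log2 folds ± SE between groups of 3 libraries, and at low TPM they are smaller than the true fold. The 3 comparisons with N2 share the N2 libraries, so a high or low N2 library moves all of them together.

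In itr-1 mutants against N2, 41 of the 51 tested members rose and 1 fell, where 29% of all genes tested rose and 11.1% fell. By family, 26 of 30 msp- genes, 9 of 12 ssp- genes and 6 of 9 nspd- genes rose. The median log2 fold of the members was 1.22, against 0.14 over all genes. In 45 members all 3 itr-1 libraries lay above all 3 N2 libraries, as they did for 36.3% of all genes, and in 1 member below, against 14.5%. The most abundant member, msp-36 (WBGene00003432, chromosome IV, 10095433 to 10095816), was at 257, 325 and 243 TPM in itr-1 and at 89.8, 134 and 97.6 TPM in N2. Its groups did not overlap, and it rose by 1.36 ± 0.29 (adjusted p = 0.00457). Next in abundance came msp-59 (chromosome IV), at 226, 321 and 219 TPM in itr-1 and 67.2, 98.1 and 76.7 TPM in N2, a rise of 1.64 ± 0.31 (adjusted p = 0.00246). The chromosome IV copies msp-76 (1.57 ± 0.31), msp-113 (1.76 ± 0.28), msp-81 (1.34 ± 0.30) and msp-57 (1.74 ± 0.32) and the chromosome II copies msp-40 (0.91 ± 0.24) and msp-33 (1.46 ± 0.30) rose too, with adjusted p of 0.00104 to 0.0125. The 3 largest log2 folds belonged to msp-65 at 1.91 ± 0.32, msp-55 at 1.88 ± 0.31 and msp-51 at 1.86 ± 0.32, all on chromosome IV.

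Among the ssp- genes the pair ssp-9 and ssp-11 (chromosome IV) were the most abundant. In itr-1 mutants ssp-9 was at 64.1, 113 and 52.6 TPM, against 32.8, 39.6 and 22.04 TPM in N2 (1.22 ± 0.42, adjusted p = 0.0408). For ssp-11 the itr-1 libraries were at 69.4, 88.0 and 84.0 TPM and the N2 libraries at 23.2, 32.8 and 34.3 TPM (1.40 ± 0.28, adjusted p = 0.00366). In neither gene did the groups overlap. The chromosome V gene ssp-35 (0.97 ± 0.32, adjusted p = 0.0313) and ssp-10 on chromosome IV (1.56 ± 0.29, adjusted p = 0.00259) rose as well. For ssp-32 no difference was called at 0.14 ± 0.17 (adjusted p = 0.537), with 5.27, 4.504 and 3.91 TPM in itr-1 and 5.19, 3.95 and 3.15 TPM in N2. Its groups overlapped, and so did those of msp-74, a low copy at 0.17 ± 0.45 (adjusted p = 0.789).

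The most abundant nspd- gene, nspd-2 (chromosome IV, 9844060 to 9844272), was at 161, 226 and 142 TPM in itr-1 and 51.9, 67.9 and 48.8 TPM in N2. All itr-1 libraries of nspd-2 lay above N2, and it rose by 1.62 ± 0.36 (adjusted p = 0.00618). The genes nspd-1 on chromosome I (1.01 ± 0.21, adjusted p = 0.00449) and nspd-7 on chromosome IV (1.03 ± 0.28, adjusted p = 0.0156) also rose, while nspd-5 on chromosome II was not called at 0.63 ± 0.28 (adjusted p = 0.0978). Leaving out 1 library at a time gave between 30 and 45 members called higher. The count was 21 higher and 3 lower when libraries were scaled to an equal summed TPM of 36 other sperm genes, which are described further on. Those were 41.2% and 5.88% of the members, against 3.68% and 55.6% of all genes under the same scaling.

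**Figure D2:**
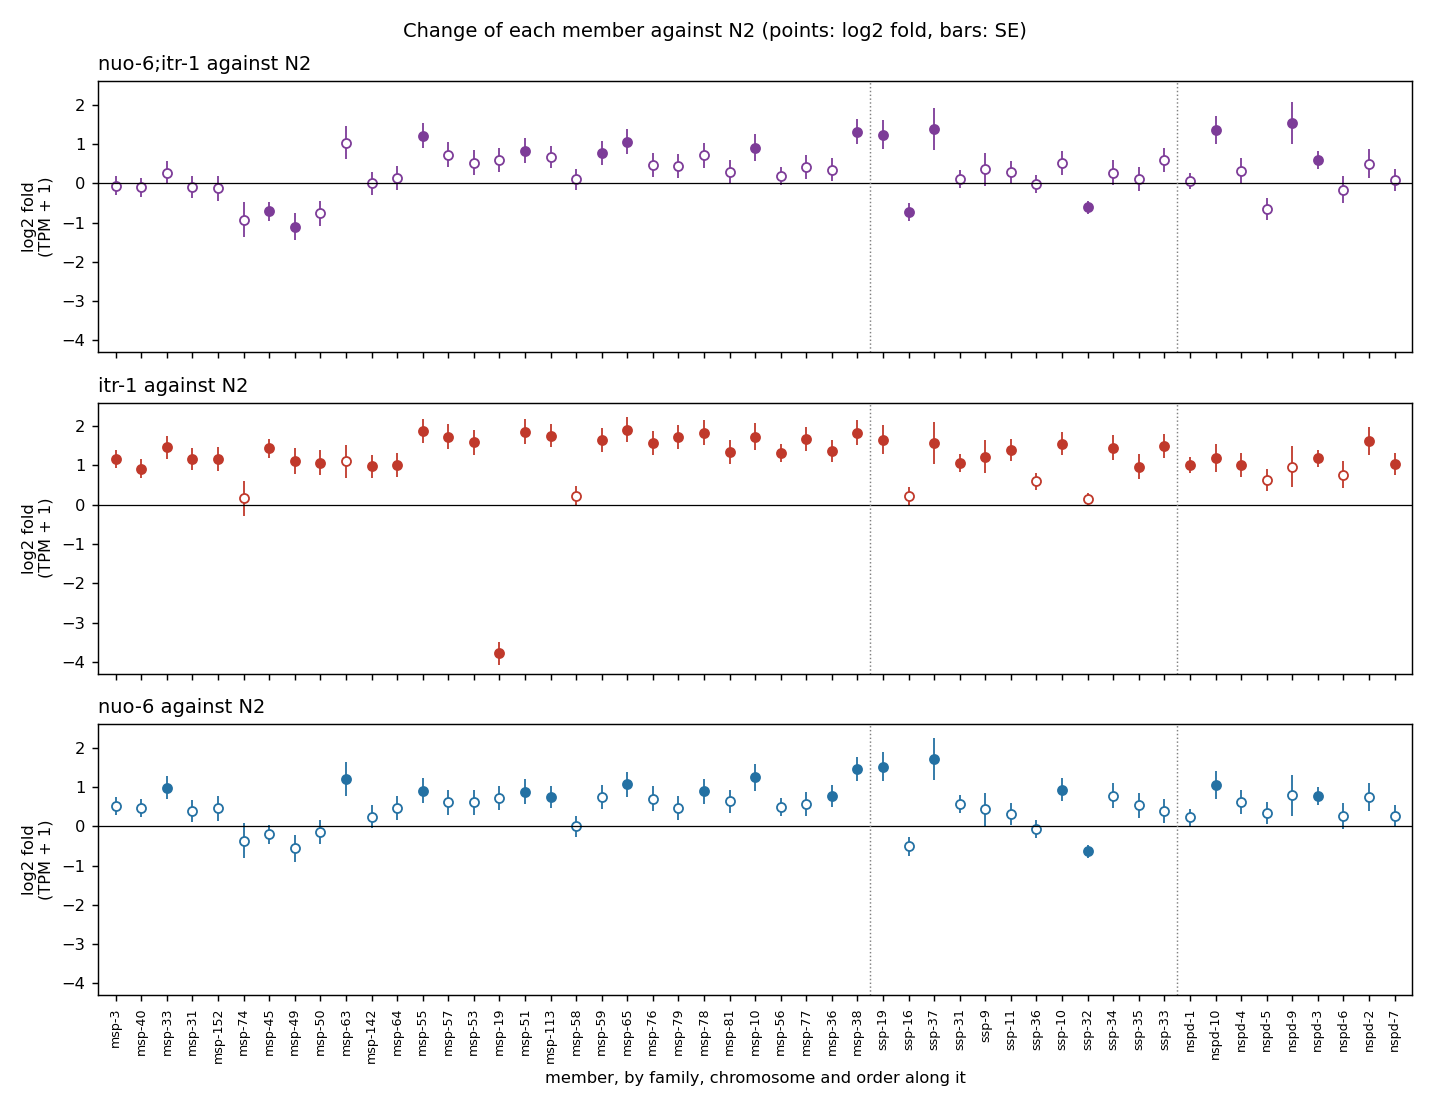
Log2 fold (points) with SE (bars) on the log2(TPM + 1) scale of the 51 members tested against N2, in the double mutant (top), itr-1 (middle) and nuo-6 (bottom). Filled points have an adjusted p under 0.05, dotted lines separate the msp-, ssp- and nspd- genes, and in the middle panel 41 members are called higher while msp-19 alone is called lower, at -3.78.

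The exception in itr-1 mutants was msp-19 (WBGene00003426, chromosome IV, 5260589 to 5260972). It was at 119.3, 175 and 57.7 TPM in the double mutant, 3.79, 5.02 and 3.79 TPM in itr-1, 101, 121 and 126 TPM in nuo-6, and 66.5, 80.9 and 64.4 TPM in N2. Only the itr-1 libraries were low, and they overlapped with no other library of the series. The log2 fold was -3.78 ± 0.30 in itr-1 against N2 (adjusted p = 1.14e-05) and 4.38 ± 0.30 in the double mutant against itr-1 (adjusted p = 2.63e-06). In itr-1 msp-19 made up 0.0960% of the msp- sum, against 4.29% in N2.

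Genes beside msp-19 were then read, a choice made after its values were seen. The next 2 genes, F36H12.5 (chromosome IV, 5266774 to 5267605) and F36H12.4 (chromosome IV, 5269103 to 5269626), were listed at 0 in all 3 itr-1 libraries. F36H12.5 was at 17.1, 18.7 and 8.87 TPM in the double mutant, 15.6, 17.9 and 16.4 TPM in nuo-6 and 9.72, 15.02 and 12.36 TPM in N2. F36H12.4 was at 12.94, 20.4 and 8.36 TPM in the double mutant, 15.7, 15.3 and 20.3 TPM in nuo-6 and 16.9, 17.5 and 22.3 TPM in N2. Both were thus detected in every library except those of itr-1. On the other side, the kinase gene ttbk-2.1 (chromosome IV, 5258685 to 5259992) was at 1.88, 2.57 and 2.07 TPM in itr-1 and 10.7, 13.3 and 10.8 TPM in N2, with 9.15, 10.8 and 4.79 TPM in the double mutant. F36H12.9, beyond ttbk-2.1, was at 9.69, 13.5 and 6.05 TPM in the double mutant, 5.36, 6.40 and 4.28 TPM in itr-1 and 11.5, 12.42 and 11.96 TPM in N2. These 2 genes were below N2 in every itr-1 library as well. The neighbours F36H12.10, at 14.8, 12.7 and 14.3 TPM in itr-1 and 11.5, 11.3 and 11.2 TPM in N2, and F36H12.3, at 19.5, 18.3 and 13.2 TPM in itr-1 and 8.91, 11.8 and 9.21 TPM in N2, were above N2 in all 3 itr-1 libraries. The low values therefore covered a run of adjacent genes, from F36H12.9 to F36H12.4, in the strain labelled itr-1(sa73). Among them msp-19, F36H12.5 and F36H12.4 were well above their itr-1 levels in every library of the double mutant, whose label carries the same allele. F36H12.4 was nonetheless below N2 in replicates 1 and 3 of the double mutant. What sets the strains apart at this place was not tested. The itr-1 gene itself lies elsewhere on chromosome IV, and its transcript averaged 33.7 ± 1.21 TPM in the double mutant, 27.1 ± 4.2 in itr-1, 30.3 ± 2.74 in nuo-6 and 21.2 ± 3.18 in N2 (SD, n = 3 each).

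**Figure D3:**
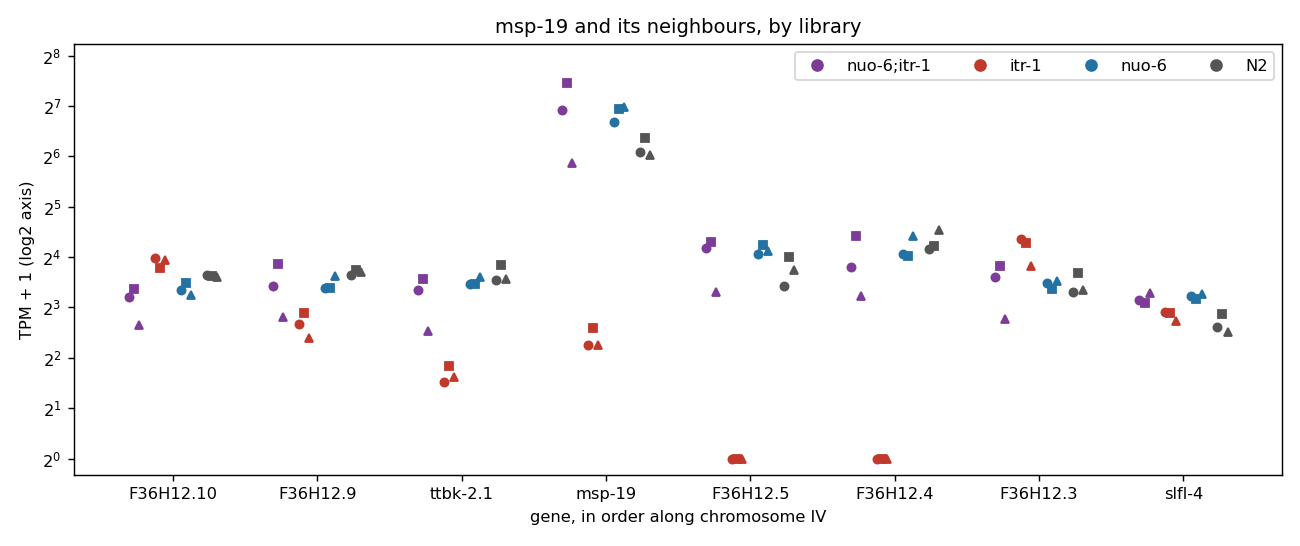
Level of msp-19 and 7 neighbouring genes in each library, as TPM + 1 on a log2 axis, with genes in their order along chromosome IV and point shapes giving replicates 1 (circle), 2 (square) and 3 (triangle). The red itr-1 points are lowest for ttbk-2.1, msp-19, F36H12.5 and F36H12.4, and the last 2 of these are listed at 0 in all 3 itr-1 libraries.

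In nuo-6 mutants against N2, 15 of the 51 members rose and 1 fell, where 37.3% of all genes tested rose and 15% fell. The share of members that rose, 29.4%, was thus below that of all genes. It stayed below with median-of-ratios scaling (13.7% against 23.9%), quantile normalization (11.8% against 20.9%), no filter (19.2% against 27.8%) and a filter of 5 TPM (33.3% against 39.2%). In some other fits this order turned. With the replicate number as a block 26 members rose (51% against 40.6% of all genes), in a fit of nuo-6 and N2 libraries alone 34 rose (66.7% against 40.7%), and with libraries scaled to other sperm genes 9 rose (17.6% against 8.92%). The median log2 fold of the members was 0.57, against 0.18 over all genes, and in 34 members the 3 nuo-6 libraries lay above the 3 N2 libraries, as they did for 46.1% of all genes. In 3 members they lay below, against 19.9% of all genes. The msp- genes called higher were 10 of 30, the ssp- genes 3 of 12 and the nspd- genes 2 of 9. In nuo-6, msp-36 was at 167, 192 and 185 TPM, against 89.8, 134 and 97.6 TPM in N2, a rise of 0.77 ± 0.29 (adjusted p = 0.0418). Among the other abundant msp- copies, msp-33 (0.98 ± 0.30, adjusted p = 0.0172) and msp-113 (0.75 ± 0.28, adjusted p = 0.0453) rose, while msp-59 (0.75 ± 0.31, adjusted p = 0.0619), msp-76 (0.70 ± 0.31, adjusted p = 0.0796), msp-81 (0.64 ± 0.30), msp-57 (0.61 ± 0.32) and msp-40 (0.47 ± 0.24) were not called.

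The largest log2 folds in nuo-6 were those of ssp-37 (chromosome I) at 1.72 ± 0.54 (adjusted p = 0.0195), ssp-19 (chromosome I) at 1.52 ± 0.37 (adjusted p = 0.00517) and msp-38 (chromosome IV) at 1.46 ± 0.31 (adjusted p = 0.00265). For msp-38 the nuo-6 libraries were at 61.1, 55.7 and 58.4 TPM and the N2 libraries at 17.4, 27.8 and 17.98 TPM, without overlap. The gene ssp-37 was low everywhere, at 3.96, 5.83 and 4.02 TPM in nuo-6 and 0.107, 1.55 and 0.682 TPM in N2. Of the abundant ssp- and nspd- genes, ssp-10 rose (0.93 ± 0.29, adjusted p = 0.0212), and ssp-9, ssp-11, ssp-35, nspd-1, nspd-2, nspd-5 and nspd-7 were not called, with log2 folds of 0.23 to 0.75. The member that fell was ssp-32, at 2.24, 2.82 and 1.71 TPM in nuo-6 and 5.19, 3.95 and 3.15 TPM in N2 (-0.64 ± 0.17, adjusted p = 0.00842). Its groups did not overlap.

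The nuo-6 count depended on single libraries. It was 4 without N2 replicate 1, 6 without N2 replicate 3, 5 without nuo-6 replicate 2 and 8 without nuo-6 replicate 3, and it was 24 and 31 without replicates 2 and 3 of the double mutant, which enter through the shared estimate of the spread. Median-of-ratios scaling, which brought the median of all genes to 0.00, gave 7 higher and 2 lower. Those were 13.7% and 3.92% of members, against 23.9% and 25.3% of all genes.

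In the double mutant against N2, 11 of the 51 members rose and 4 fell, where 46.3% of all genes tested rose and 17% fell. The median log2 fold was 0.32, against 0.25 over all genes. In only 4 members did all double mutant libraries lie above N2, and in 4 they lay below, against 48.2% and 19% of all genes. The largest log2 folds were those of nspd-9 (chromosome III, 1.53 ± 0.53, adjusted p = 0.0264), ssp-37 (1.38 ± 0.54, adjusted p = 0.0417) and nspd-10 (chromosome I, 1.35 ± 0.36, adjusted p = 0.00663). Among the 8 most abundant msp- genes msp-59 alone was called, at 155, 216 and 77.0 TPM in the double mutant and 67.2, 98.1 and 76.7 TPM in N2 (0.77 ± 0.31, adjusted p = 0.0461). Replicate 3 of the double mutant lay within the N2 range. The members that fell were msp-49 (-1.10 ± 0.34, adjusted p = 0.0143), ssp-16 (-0.73 ± 0.23, adjusted p = 0.0175), msp-45 (-0.72 ± 0.25, adjusted p = 0.0265) and ssp-32 (-0.61 ± 0.17, adjusted p = 0.00831). The msp- copies among them, both on chromosome II, were at 27.6, 38.2 and 11.1 TPM (msp-49) and 32.1, 44.2 and 19.1 TPM (msp-45) in the double mutant, and at 43.6, 56.8 and 51.2 TPM (msp-49) and 41.7, 62.4 and 48.3 TPM (msp-45) in N2. Groups did not overlap for msp-49 and did for msp-45. Without replicate 3 of the double mutant 33 members were called higher and 2 lower, and without N2 replicate 2 the lower calls were 2. The count of members higher was 3 without replicate 2 and 4 without replicate 1 of the double mutant, and 4 or 5 without N2 replicate 3 or 1. It was 6 without nuo-6 replicate 3, and 7 without nuo-6 replicate 1, nuo-6 replicate 2 or itr-1 replicate 1. Median-of-ratios scaling gave 4 higher and 6 lower, or 7.84% and 11.8% of members, against 27.8% and 30.2% of all genes.

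Against itr-1 mutants the double mutant had lower sperm family levels. Of the 51 members 36 fell and 1, msp-19, rose, where 16.4% of all genes tested fell and 29.3% rose. The median log2 fold was -0.97, against 0.09 over all genes, and in 34 members all double mutant libraries lay below all itr-1 libraries, as they did for 17.6% of all genes. In msp-19 they lay above, as for 33.8% of all genes. By family, 22 of 30 msp- genes, 9 of 12 ssp- genes and 5 of 9 nspd- genes fell. The largest falls were those of msp-49 (-2.21 ± 0.34, adjusted p = 0.000462), msp-45 (-2.15 ± 0.25, adjusted p = 7.83e-05) and msp-50 (-1.83 ± 0.32, adjusted p = 0.00100), 3 copies close together on chromosome II. The most abundant member, msp-36, was at 150, 208 and 77.9 TPM in the double mutant and 257, 325 and 243 TPM in itr-1 (-1.01 ± 0.29, adjusted p = 0.0148), without overlap. In the smaller families, nspd-2 fell to 78.8, 150 and 41.2 TPM in the double mutant, against 161, 226 and 142 TPM in itr-1 (-1.12 ± 0.36, adjusted p = 0.0271), with replicate 2 of the double mutant above the lowest itr-1 library. The genes nspd-9 (0.56 ± 0.53, adjusted p = 0.420) and nspd-10 (0.17 ± 0.36, adjusted p = 0.720) were not called. Without replicate 3 of the double mutant 26 members fell, and without itr-1 replicate 2 the number was 19.

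Against nuo-6 mutants, 0 members rose in the double mutant and 1 fell, where 9.99% of all genes tested rose and 5.46% fell. At an unadjusted p under 0.05 limma gave 0 higher and 4 lower. The median log2 fold was -0.24, against 0.07 over all genes. All double mutant libraries lay above nuo-6 in 0 members and below in 2, against 27.2% and 12.5% of all genes. The member that fell was nspd-5 on chromosome II, at 29.1, 32.4 and 13.1 TPM in the double mutant and 43.7, 47.3 and 50.97 TPM in nuo-6 (-0.99 ± 0.28, adjusted p = 0.0369). Its groups did not overlap. The median SD of 0.74 within the double mutant limits what this comparison can show: for msp-36 the log2 fold was -0.43 with an SE of 0.29 (adjusted p = 0.335). Without replicate 2 of the double mutant 7 members fell, and without replicate 3, itr-1 replicate 1, N2 replicate 1, any 1 nuo-6 library or replicate 1 of the double mutant 0 did.

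The interaction asks whether the double mutant differs from the sum of both single mutant effects, on the log2 scale. It was negative and called in 33 of the 51 members and positive and called in msp-19, where 8.32% of all genes tested were called negative and 3.69% positive. Its median was -1.62 over the members and -0.05 over all genes. The largest negative values were those of msp-33 (-2.17 ± 0.42, adjusted p = 0.00965), msp-10 (-2.06 ± 0.49, adjusted p = 0.0230) and msp-78 (-2.02 ± 0.45, adjusted p = 0.0177), and msp-19 was at 3.67 ± 0.43 (adjusted p = 0.000540). For msp-33 (chromosome II, 4892311 to 4892694) the double mutant libraries were at 107, 143 and 52.4 TPM, the itr-1 libraries at 195, 264 and 187, the nuo-6 libraries at 137, 160 and 161, and the N2 libraries at 62.1, 90.8 and 80.1 TPM. Both single mutants lay above N2 in every library of msp-33, while the double mutant overlapped with N2. By family, 24 of 30 msp-, 5 of 12 ssp- and 4 of 9 nspd- genes were called negative. The count of 33 was 9 without N2 replicate 1 or nuo-6 replicate 2, 13 without itr-1 replicate 2 or nuo-6 replicate 3, and 16 without N2 replicate 3. It stayed at 33 without replicate 3 of the double mutant, and was 13 under the scaling to other sperm genes. Under that scaling 25.5% of members were called negative, against 1.88% of all genes, and 63.3% of all genes were called positive.

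The composition of the msp- pool differed between the strains as well as its size. The sum over msp- genes of chromosome II divided by the sum over those of chromosome IV was 0.379, 0.357 and 0.376 in the double mutant, 0.480, 0.478 and 0.515 in itr-1, 0.472, 0.482 and 0.507 in nuo-6, and 0.647, 0.599 and 0.674 in N2. All N2 libraries lay above all mutant libraries and all double mutant libraries below those of the single mutants, including replicate 3, whose total was low. This ratio is taken within a library and does not change with the scaling of a library. Without msp-19, msp-45, msp-49 and msp-50, which were left out after their values were seen, it was 0.335, 0.319 and 0.339 in the double mutant, 0.348, 0.345 and 0.369 in itr-1, 0.420, 0.426 and 0.450 in nuo-6, and 0.513, 0.470 and 0.524 in N2. N2 still lay above every mutant library, and nuo-6 then lay above itr-1. The median log2 fold of msp- genes on chromosome II and on chromosome IV was -0.10 and 0.63 in the double mutant, 1.10 and 1.70 in itr-1 and 0.42 and 0.73 in nuo-6, each against N2. In itr-1, 10 of 12 tested on chromosome II and 16 of 18 on chromosome IV rose, in nuo-6 2 and 8 rose, and in the double mutant 0 and 6 rose. On chromosome IV 1 fell in itr-1, and on chromosome II 2 fell in the double mutant. Of all genes tested, 29% rose in itr-1, 37.3% in nuo-6 and 46.3% in the double mutant, and 11.1%, 15% and 17% fell. How reads shared by near-identical copies were assigned could move values between copies, and its part in the ratio was not tested.

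**Figure D4:**
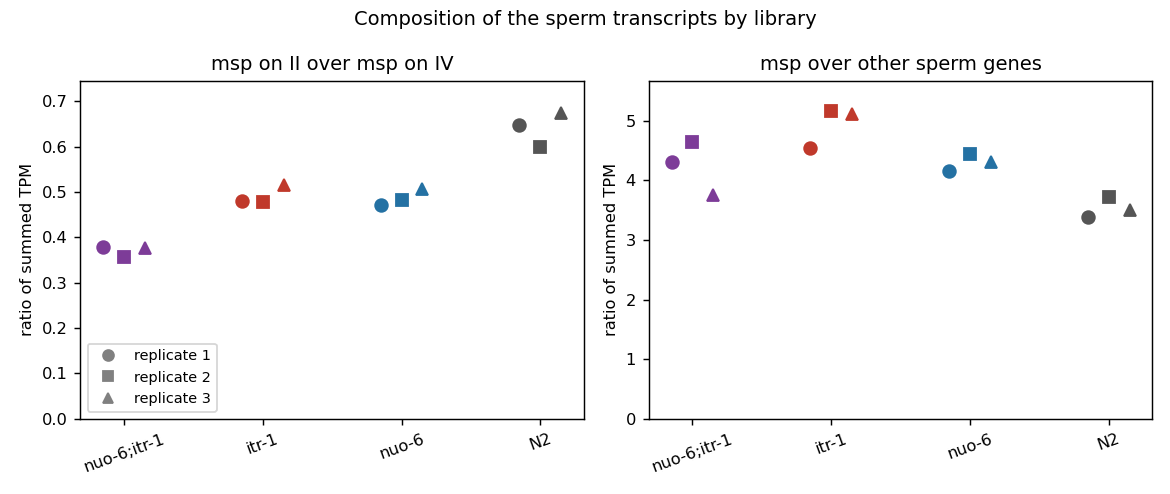
Ratio of the summed TPM of msp- genes on chromosome II to those on chromosome IV (left) and of all msp- genes to 36 other sperm genes (right) in each library, with point shapes for the replicates. On the left the double mutant libraries (0.357 to 0.379) lie below all others and the N2 libraries (0.599 to 0.674) above all mutant libraries; on the right the N2 libraries (3.38 to 3.72) lie below all mutant libraries.

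Within this pool, 3 copies close together on chromosome II had a low share in strains that carry the nuo-6 mutation. The share of the msp- sum held by msp-45 averaged 1.44% in the double mutant, 3.16% in itr-1, 1.72% in nuo-6 and 3.05% in N2. For msp-49 the shares were 1.09%, 2.52%, 1.34% and 3.06%, and for msp-50 2.03%, 3.54%, 2.61% and 4.44%, in the same order of strains. Relative to N2 the share of msp-49 was 0.356 times in the double mutant, 0.824 times in itr-1 and 0.439 times in nuo-6. At the level of TPM, msp-49 was at 95.7, 134 and 102 TPM in itr-1 and 28.8, 36.3 and 36.8 TPM in nuo-6, on either side of the N2 values given above. In nuo-6 against N2 limma did not call msp-49 (-0.56 ± 0.34, adjusted p = 0.185). For msp-45 the nuo-6 libraries (38.4 to 47.4 TPM) overlapped with N2 (41.7 to 62.4 TPM). For msp-50 nuo-6 (56.0 to 73.4 TPM) overlapped with N2 (63.5 to 79.85 TPM) as well. The gene F58A6.9, which lies beside msp-45 on chromosome II (5158641 to 5158874) and was read after these values were seen, had 7.09, 6.81 and 3.91 TPM in the double mutant, 38.7, 45.4 and 31.6 in itr-1, 6.30, 12.04 and 7.75 in nuo-6, and 18.9, 16.98 and 17.8 TPM in N2. C27D6.11, the next gene, had 3.15, 4.75 and 2.00 TPM in the double mutant, 10.9, 11.9 and 9.19 in itr-1, 3.81, 4.35 and 4.79 in nuo-6 and 6.18, 8.48 and 6.61 TPM in N2. Both were below N2 in every double mutant and nuo-6 library and above N2 in every itr-1 library. Other genes of the stretch did not follow this pattern. C34F11.5, which lies between msp-49 and msp-50, had 6.46, 8.65 and 3.81 TPM in the double mutant, 14.95, 13.6 and 10.3 in itr-1, 7.68, 7.998 and 7.26 in nuo-6 and 8.05, 9.63 and 7.58 TPM in N2, so that nuo-6 and the double mutant overlapped with N2. C27D6.3, between msp-45 and msp-49, had 35.8, 46.6 and 17.3 TPM in the double mutant, 73.9, 77.4 and 54.9 in itr-1, 39.98, 41.5 and 43.4 in nuo-6 and 29.95, 42 and 29.91 TPM in N2, with the same overlaps. Copies with a higher share were msp-38, at 1.99 times N2 in the double mutant, 1.40 times in itr-1 and 1.86 times in nuo-6, and msp-10, at 1.47, 1.27 and 1.56 times in the same strains. Differences between copies in their share were not tested.

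**Figure D5:**
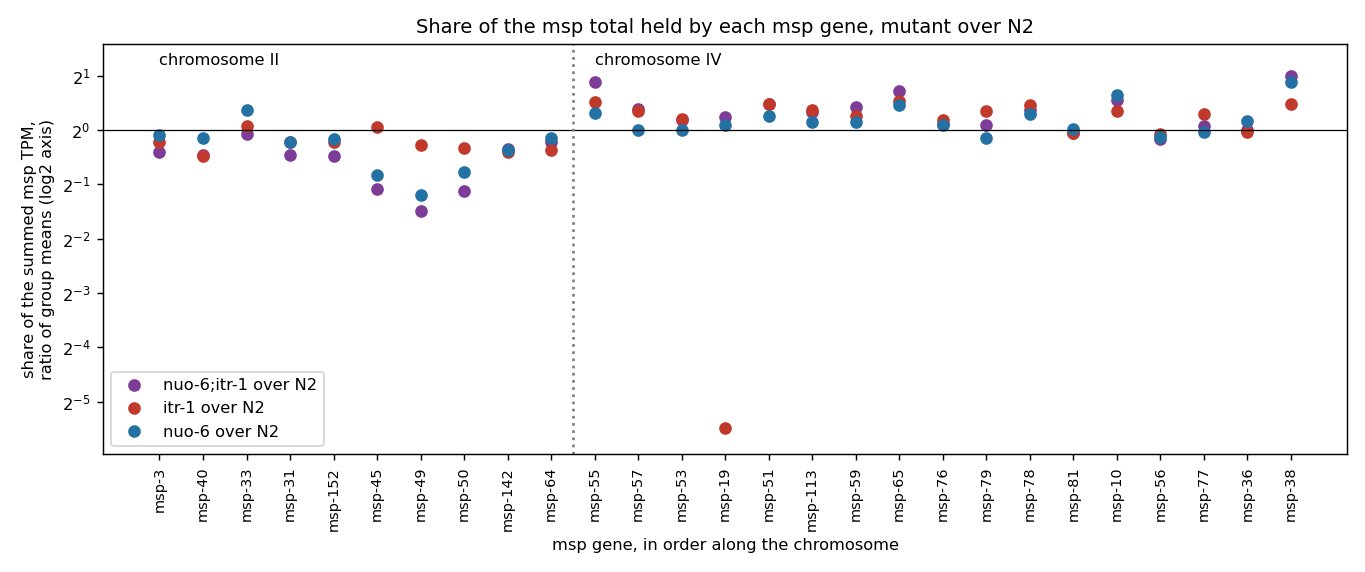
Share of the summed msp- TPM held by each of 27 msp- genes with over 0.5% of the sum in N2, as the ratio of a mutant's mean share to that of N2 on a log2 axis, in order along chromosomes II (10 genes) and IV (17 genes). The chromosome II copies lie mostly below the line at 1, msp-45, msp-49 and msp-50 are lowest in nuo-6 and the double mutant, and msp-19 is at 0.0224 in itr-1.

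Across the 12 libraries most members moved as 1 profile. Pearson's r between a member and the mean log2(TPM + 1) of the members was over 0.9 for 32 of 51 members, with a median of 0.944, and -0.534 for msp-19. This describes 12 points that share library composition and strain, and has no test. The gene outside the families with the most similar profile was ssq-1, a sperm-specific family gene of another class, at r = 0.997. The other 9 of the 10 most similar genes (r = 0.988 to 0.993) were nsph-2, which belongs to a further nematode-specific peptide family, and C50E10.1, Y57G11A.2, C30G7.3, T23G11.1, C33F10.1, F38H4.4, F53B6.4 and C14C10.1. ssq-1 averaged 66.3 TPM in the double mutant, 120 in itr-1, 70.7 in nuo-6 and 44.1 in N2.

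Other sperm genes moved less uniformly than the families. A list of 36 genes for spermatid proteins and sperm function, none of them a member, summed to between 318 and 712 TPM in the double mutant, 749 and 1027 in itr-1, 549 and 611 in nuo-6 and 415 and 535 in N2. Of 34 tested, 2 rose and 9 fell in the double mutant, 16 rose and 1 fell in itr-1, and 5 rose and 7 fell in nuo-6, each against N2. The shares that rose were 5.88%, 47.1% and 14.7% in that order of strains, against 46.3%, 29% and 37.3% of all genes, and those that fell were 26.5%, 2.94% and 20.6%, against 17%, 11.1% and 15%. The medians were -0.10, 0.41 and 0.07. The list thus held genes that rose beside genes that fell within the same comparison. Rises in itr-1 were seen for msd-3, which encodes a protein with a major sperm protein domain (1.43 ± 0.19, adjusted p = 0.000292), sss-1, a sperm-specific gene (1.71 ± 0.34, adjusted p = 0.00348), peel-1, the sperm-delivered toxin (0.82 ± 0.15, adjusted p = 0.00199), and spe-15, a myosin of the budding spermatid (0.83 ± 0.17, adjusted p = 0.00353).

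Genes that fell in nuo-6 included fer-1, a ferlin for fusion of membranous organelles in sperm (-0.74 ± 0.12, adjusted p = 0.000431), and spe-49 (-0.72 ± 0.12, adjusted p = 0.000560), a sperm membrane protein. In the double mutant spe-49 (-0.92 ± 0.12, adjusted p = 7.43e-05), spe-4, a sperm presenilin (-0.75 ± 0.10, adjusted p = 9.34e-05), and fer-1 (-0.83 ± 0.12, adjusted p = 0.000130) fell. Those that rose in nuo-6 were msd-3, zipt-7.1, peel-1, sss-1 and msd-1, and in the double mutant zipt-7.1 and msd-3. Against itr-1 the double mutant had 24 of the 34 lower and 1, zipt-7.1, higher (70.6% and 2.94%, against 16.4% and 29.3% of all genes). The ratio of the msp- sum to the sum of this list was 4.32, 4.64 and 3.76 in the double mutant, 4.55, 5.16 and 5.11 in itr-1, 4.16, 4.44 and 4.32 in nuo-6, and 3.38, 3.72 and 3.50 in N2. All 9 mutant libraries lay above all N2 libraries in it.

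The 4 sperm chromatin genes were spch-1, spch-2 and spch-3, small basic nuclear proteins of sperm, and htas-1, a sperm histone variant. They all rose in itr-1, where 29% of all genes rose, by 1.13 ± 0.25 (spch-3, adjusted p = 0.00516), 1.06 ± 0.25 (spch-2), 0.96 ± 0.23 (htas-1) and 0.95 ± 0.25 (spch-1). In nuo-6 and in the double mutant limma called 0 of the 4 against N2, also at an unadjusted p under 0.05. The nuo-6 values were 0.25 to 0.45, and those of the double mutant -0.10 to 0.34. For 3 of them, htas-1, spch-1 and spch-3, the interaction was called negative, as it was for 8.32% of all genes.

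Among 20 genes that control the sperm programme, 8 rose and 4 fell in the double mutant, 7 rose and 3 fell in itr-1, and 5 rose and 5 fell in nuo-6, each against N2. The shares that rose were 40%, 35% and 25% in that order of strains, against 46.3%, 29% and 37.3% of all genes, and those that fell were 20%, 15% and 25%, against 17%, 11.1% and 15% of all genes. The counts of this list were therefore near those of genes in general, and single genes are given as examples. The gene for SPE-44, a transcription factor needed in spermatocytes for the expression of many sperm genes, fell in all 3 mutants. It was at 11.6, 11.3 and 9.15 TPM in the double mutant, 15.1, 13.5 and 13.8 in itr-1, 13.4, 11.97 and 12.34 in nuo-6, and 19.5, 21.9 and 21.2 TPM in N2. No mutant library of spe-44 overlapped with N2, and its log2 fold was -0.91 ± 0.09 in the double mutant (adjusted p = 1.28e-05), -0.53 ± 0.09 in itr-1 (adjusted p = 0.00183) and -0.69 ± 0.09 in nuo-6 (adjusted p = 0.000140). The itr-1 mutants thus combined a lower spe-44 level with higher levels of most msp- genes. fog-3, which directs germ cells to the sperm fate, was at 10.3, 5.91 and 10.1 TPM in itr-1 and 16.8, 14.9 and 14.1 TPM in N2 (-0.77 ± 0.17, adjusted p = 0.00519). rnp-8, an RNA-binding partner in the oocyte programme, rose in the double mutant (1.37 ± 0.17), in itr-1 (0.82 ± 0.17) and in nuo-6 (1.32 ± 0.17), with adjusted p of 5.38e-05 to 0.00474. Further changes were those of fbf-2, a regulator of the switch from sperm to oocytes that fell in nuo-6 (-0.80 ± 0.06, adjusted p = 3.10e-06) and in the double mutant (-0.75 ± 0.06, adjusted p = 2.89e-06), and of tra-1, the terminal sex determination factor that rose in both (0.39 ± 0.08 and 0.67 ± 0.08, in that order of strains).

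Genes that receive or pass on the major sperm protein signal in the oocyte and the sheath were read from a list of 20, which holds itr-1 itself. Against N2, 15 rose in the double mutant, 9 in itr-1 and 5 in nuo-6, and 0 fell in any (0 also at an unadjusted p under 0.05). These rises were 75%, 45% and 25% of the list, against 46.3%, 29% and 37.3% of all genes. The median log2 fold of the list was 0.34 in the double mutant, 0.22 in itr-1 and 0.19 in nuo-6. Over all genes it was 0.25, 0.14 and 0.18, so the medians of the list were close to those of all genes. After median-of-ratios scaling the summed list was 1.025, 1.084 and 0.973 times N2 in the same order of strains. inx-14, a gap junction subunit between sheath and oocyte, rose by 0.87 ± 0.18 in the double mutant (adjusted p = 0.00144), 0.77 ± 0.18 in itr-1 (adjusted p = 0.00729) and 0.78 ± 0.18 in nuo-6 (adjusted p = 0.00369). plc-1, a phospholipase C that acts in the spermatheca, rose by 0.55 ± 0.08 in the double mutant, 0.36 ± 0.08 in itr-1 and 0.33 ± 0.08 in nuo-6. oma-2, an oocyte maturation factor, was at 25.1, 60.7 and 21.9 TPM in itr-1 and 6.67, 15.4 and 9.09 TPM in N2 (1.62 ± 0.42, adjusted p = 0.0122). The replicate with the highest oma-2 level was number 2 in both strains.

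Most genes of a list for oocytes and early embryos were higher in the mutants. Of 30 such genes, which include oma-1 and oma-2 and of which none was at 0 everywhere, 27 rose in the double mutant, 30 in itr-1 and 20 in nuo-6, each against N2, with medians of 1.21, 1.57 and 0.93. These were 90%, 100% and 66.7% of the list, against 46.3%, 29% and 37.3% of all genes, whose medians were 0.25, 0.14 and 0.18. The 30 genes summed to 1121, 1955 and 738 TPM in the double mutant, 1187, 2447 and 1059 in itr-1, 920, 1089 and 1017 in nuo-6, and 356, 679 and 433 TPM in N2. In TPM every mutant library lay above every N2 library, and replicate 3 of the double mutant was the lowest mutant library, as it was for the msp- sum. After median-of-ratios scaling this replicate was at 695, below N2 replicate 2 at 731, so the double mutant and N2 then overlapped. The part of this list in the sperm family result was not tested. Divided by this list, the msp- sum was 2.07, 1.69 and 1.62 in the double mutant, 3.39, 2.16 and 3.61 in itr-1, 2.48, 2.49 and 2.52 in nuo-6, and 3.94, 2.93 and 3.67 in N2. In this ratio the double mutant lay below all other strains and nuo-6 below N2, while itr-1 and N2 overlapped. In the double mutant against itr-1, limma called 0 of the 30 oocyte genes in either direction (0 also at an unadjusted p under 0.05), whereas 36 of 51 sperm family members fell. By sign alone 25 of the 30 were lower, with a median of -0.25 against 0.09 over all genes. The list sum varied widely within both strains, at 1271 ± 622 TPM in the double mutant and 1564 ± 767 in itr-1 (SD). The absence of calls therefore does not show that these genes stayed level. The vitellogenin genes, which are yolk genes of the adult intestine, summed to 71.8, 707 and 71.8 TPM in the double mutant, 685, 3735 and 845 in itr-1, 573, 1524 and 1396 in nuo-6, and 206, 1113 and 444 in N2. In the double mutant, in itr-1, in nuo-6 and in N2 replicate 2 had the highest vitellogenin sum, and it was also the library with the most members at their highest level in each strain.

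Lists of other tissues also differed between the strains, though several counts were near those of genes in general. Of 16 genes used in the germ line at all stages, 7 fell in the double mutant against itr-1 (43.8%, against 16.4% of all genes). The germ-line list summed to between 715 and 1020 TPM in the double mutant libraries, between 979 and 1303 in itr-1, between 806 and 826 in nuo-6 and between 842.5 and 1006 TPM in N2. All 6 vitellogenin genes and 5 of 6 body wall muscle genes (83.3%) fell in the double mutant against itr-1 as well. The muscle genes, which encode myosin, paramyosin and troponins, summed to between 5043 and 5193 TPM in the double mutant, between 5970 and 6133 in itr-1, between 6843 and 7031 in nuo-6 and between 7527 and 7957 TPM in N2, and no 2 strains overlapped. Against N2, 5 of 6 fell in the double mutant, 5 in itr-1 and 3 in nuo-6 (83.3%, 83.3% and 50%, against 17%, 11.1% and 15% of all genes). Of 7 neuron genes, 7 rose in the double mutant, 2 in itr-1 and 4 in nuo-6 (100%, 28.6% and 57.1%). Of 7 intestine genes 5, 3 and 2 rose in the same order (71.4%, 42.9% and 28.6%), and 1 fell in each strain (14.3%). Of 4 genes of the somatic gonad that were tested, 3 rose in the double mutant, 1 in itr-1 and 2 in nuo-6 (75%, 25% and 50%). Among all genes, 46.3%, 29% and 37.3% rose and 17%, 11.1% and 15% fell. In itr-1 the neuron and somatic gonad shares were thus near that of all genes. No gene of these lists was at 0 in every library, and the part of the lists in the sperm family results was not tested.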

How the data were processed

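The authors deposited TPM for 46926 genes in 12 libraries of polyadenylated RNA, made with a stranded kit per the labels' protocols. Per the submitters' processing notes they used the build WBcel235. Which aligner and counter they ran is not given in the sources used here. Every identifier matched the Ensembl 115 annotation of WBcel235, which gave names and positions; 1 of 2 genes listed as ssp-9 is called ssp-11, and 1 of 2 listed as msd-1 is called msd-3, after the RefSeq gene table. Depth cannot be read from TPM, hence there are no counting intervals. TPM adds up to a fixed total, so a rise of some genes lowers the shares of others.

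From these values, log2(TPM + 1) was fitted with limma 3.58.1 (eBayes with trend, under R 4.3.3) for 15230 genes. These reached 1 TPM in 3 or more libraries. The fit had 1 mean per strain and 8 residual degrees of freedom. The tests are two-sided, with Benjamini-Hochberg adjustment over all genes in each of 6 comparisons, called under 0.05, and the code was tested on simulated data. Members, lists and the rule for named genes (per family the most abundant members, in each comparison the 3 largest and 3 smallest folds and members called against the majority, and per list the 4 smallest adjusted p) were chosen with earlier results of these data known. Replicates are the labels' biological replicates; whether they were separate cultures is not stated, so the p-values measure the spread between these samples. Alternatives were pseudocounts of 0.1 and 0.5 TPM, quantile normalization, scaling by median of ratios, a minimum of 5 TPM or none in place of the filter, TPM re-closed without members, a fit of only the groups compared, a replicate block and the omission of each library. Scaling to 36 other sperm genes was added after the data were seen. Protein and promoter sequences were not used here, and 1 gene of the list of other sperm genes is not reported by name. Figures were drawn with Python 3.11.15 and matplotlib 3.10.9.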

Additional observations from a re-analysis of the deposited data

Results flagged for a closer look

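The effect of the itr-1 mutation on the sperm families differed with the nuo-6 background by limma's interaction test: 33 of 51 members were called negative and 1 positive, where 8.32% of all genes were called negative and 3.69% positive. The number called negative was 9 without N2 replicate 1 or nuo-6 replicate 2, and 13 with libraries scaled to other sperm genes (25.5% of members, against 1.88% of all genes). The most negative were msp-33 (-2.17), msp-10 (-2.06) and msp-78 (-2.02), and the positive member was msp-19 (3.67), each on the log2 scale.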

How the results depend on the processing

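Pseudocounts of 0.1 and 0.5 TPM and re-closing TPM without the members left the counts of members called, higher or lower, within 1.5 times the values reported in all 6 comparisons. Median-of-ratios scaling gave 7 higher and 2 lower in nuo-6 against N2 and 4 higher in the double mutant against N2. Quantile normalization gave 6 and 2 in nuo-6, and 5 and 7 in the double mutant against N2. Under it 20.9% of all genes rose and 28.2% fell in nuo-6, and 24.6% rose and 31% fell in the double mutant. A fit of only the groups compared leaves 4 residual degrees of freedom and does not exist for the interaction. It gave 34 higher and 3 lower in nuo-6, where 40.7% of all genes rose and 16.9% fell. In the double mutant against N2 it gave 6 and 2, where 43.7% of all genes rose and 15.7% fell. Against nuo-6 it gave 0 lower, where 5.17% of all genes fell. Against itr-1 it gave 20 lower, or 39.2% of members, against 10.2% of all genes. Without a filter 6 members were higher in the double mutant against N2, or 11.5% of members, against 36.8% of all genes. Against nuo-6 there were then 0 lower, where 3.78% of all genes fell. A filter of 5 TPM left 0 lower in nuo-6 against N2, where 16.9% of all genes fell, since it removes ssp-32. Scaling to the other sperm genes gave 21 higher and 3 lower in itr-1 and 9 and 3 in nuo-6, each against N2. In the double mutant it gave 0 lower against nuo-6, 4 higher and 7 lower against itr-1, and 2 and 13 in the interaction. The same scaling moved genes in general: 3.68% of all genes rose and 55.6% fell in itr-1 against N2. In the double mutant against itr-1, 71.4% of all genes rose and 0.873% fell, and in the interaction 63.3% were positive and 1.88% negative. Under this scaling ssp-32 in itr-1 was at -0.60 (adjusted p = 0.0452), and the cause was not tested.

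Leaving out 1 library at a time, itr-1 gave 30 to 45 higher and 1 lower, nuo-6 gave 4 to 31 higher and 1 to 3 lower, and the double mutant against N2 gave 3 to 33 higher and 2 to 6 lower. The double mutant gave 0 to 1 higher and 0 to 7 lower against nuo-6, and 1 higher and 19 to 43 lower against itr-1; the interaction gave 1 higher and 9 to 40 lower. Replicate numbers did not pair the strains throughout. Pairing was read from the deviation of each gene from the mean of its strain, not from the levels of whole libraries. On these deviations 11 of 18 same-numbered pairs correlated over 0.1 (range -0.02 to 0.51), and 7 of 12 libraries correlated best with their own number. Replicate 2 did run together, as its pairs correlated at 0.12 to 0.51 and each replicate 2 library correlated best with that number. With a replicate block, 26 members were higher and 2 lower in nuo-6, where 40.6% of all genes rose and 16% fell. In the double mutant against nuo-6, 2 were lower, where 6.38% of all genes fell. The other counts stayed within 1.5 times. Summing members with identical proteins was not run. The number of libraries and the spread within the double mutant limit what can be seen.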
